A study of Sus scrofa with 15 samples.

Results

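The genes described here mark fat cells or make and store fat: SCD, FASN, ACACA, PPARG, CEBPA, DGAT1, DGAT2, PLIN2 and FABP4. They were followed in Longissimus muscle, the long muscle of the back, of 15 pigs at 20 kg body weight. Probes were taken when the array files name them for 1 of these 9 genes and when at least 7 of the 15 arrays had them well above background. This gave 29 probes for 8 of the 9 genes, out of 43603 non-control probes. The only probe of DGAT1 carries another name in the files, was tied to DGAT1 through its RefSeq accession, and passed the same filter. All 9 genes therefore entered the tests, among 4666 genes tested.

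The pigs came from a line with low residual feed intake (low_RFI, RFIneg, n = 7) and a line with high residual feed intake (high_RFI, RFIpl, n = 8). Residual feed intake is the feed eaten beyond what growth and maintenance are predicted to need, and all pigs were fed ad libitum. Each pig had its own 1-colour array, hybridised with Cy3-labelled RNA made from 150 ng of total RNA. The labels give neither the age nor the sex of the pigs.

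Muscle holds fat both in adipocytes lying between the fibres and in droplets inside the fibres. ACACA makes malonyl-CoA, FASN builds saturated fatty acids from it, and SCD puts a double bond into them. DGAT1 and DGAT2 add the last fatty acid of a triglyceride, PLIN2 coats the droplet, and FABP4 carries fatty acids in adipocytes. PPARG and CEBPA are the transcription factors that drive adipocyte differentiation. In whole muscle, fewer cells of a type and less RNA per cell cannot be told apart.

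Probe sequences are shown for the genes whose probes decided how far a value could be trusted. Each is 60 bases long, written 5′ to 3′ as the files give it, and the files list no genome position for any of them. For SCD, which varied most, the dimmest of its 9 probes is given, and for FASN, which followed it, a probe that repeated the pattern of the brightest.
SCD, the dimmest probe: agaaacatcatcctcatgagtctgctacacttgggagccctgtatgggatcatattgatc
FASN, the probe of intermediate brightness: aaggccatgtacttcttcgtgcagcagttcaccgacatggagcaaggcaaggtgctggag
For ACACA and FABP4, the brighter of the ACACA probes and the fourth brightest FABP4 probe are shown, as a synthesis gene whose relations changed with the background correction and an adipocyte gene that passed with none of the others.
ACACA: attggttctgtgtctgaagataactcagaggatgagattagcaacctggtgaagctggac
FABP4: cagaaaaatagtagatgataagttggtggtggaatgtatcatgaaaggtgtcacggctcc
For PPARG, capitals mark the 53 bases that 2 of its 3 probes share, so that agreement between them is not agreement between separate stretches of the transcript.
PPARG, the brightest probe: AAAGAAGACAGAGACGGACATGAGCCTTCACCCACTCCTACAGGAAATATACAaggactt
PPARG, the next brightest probe: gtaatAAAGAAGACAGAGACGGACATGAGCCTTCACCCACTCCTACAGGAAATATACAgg
The brighter DGAT2 probe stands for the acyltransferase with the larger spread of the pair.
DGAT2: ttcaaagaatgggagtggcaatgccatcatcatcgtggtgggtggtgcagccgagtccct

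A level is the log2 processed signal of a probe minus the 75th percentile of all non-control probes on that array, so a step of 1 is a doubling. Where a gene had several tested probes, the brightest on average stands for it. Levels are compared between pigs and not between genes, since probes differ in how strongly they bind. Depending on the array, 61.7% to 79.5% of the probes stood well above background. Saturation affected 0 spots. The arrays lay on 4 slides that each held both lines. Pigs numbered 1 to 8 in the array names (4 low_RFI and 4 high_RFI) and 55 to 62 (3 low_RFI and 4 high_RFI) separated on the first principal component, which held 24.2% of the variance over genes. The 11 tested myofibre genes had a mean level of 8.54 to 8.81 in low_RFI pigs and 8.47 to 8.91 in high_RFI pigs, whereas the mean over 3 nerve markers was -3.43 to -2.85 in low_RFI and -3.60 to -2.64 in high_RFI.

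No gene of the 9 passed the test between the lines. At a limma adjusted p under 0.05 over all genes, 0 of 9 were called, against a background of 0.0214% (1 gene of 4666, MTERF3). At an unadjusted p under 0.05, 0 of 9 passed, against a background of 7.24%. In low_RFI 6 of the 9 had the higher mean and 3 the lower, where 55.3% of all tested genes had the higher mean in low_RFI. The median of the 9 differences (low_RFI minus high_RFI) was 0.09 on the log2 scale, and that of all genes 0.02. Levels of the lines overlapped in all 9 genes. Within the sets of array numbers 5 of the 9 differences took opposite signs: FABP4 had 0.27 within numbers 55 to 62 and -0.03 within 1 to 8, ACACA 0.24 and -0.29, CEBPA -0.63 and 0.01, DGAT1 0.18 and -0.24, and PLIN2 -0.25 and 0.24. The share of all tested genes with opposite signs in the sets was not computed, so this count is not a trait of the 9. Within single slides the difference of SCD ran from -1.33 to 2.06. Of the 30 probes of the 9 genes, 0 had an unadjusted p under 0.05, against a background of 6.66% of probes. By direction, the background at an unadjusted p under 0.05 was 4.31% of genes higher and 2.94% lower in low_RFI, with 0 of 9 in either direction here. The spread between pigs within each line differed by gene, with a within-line SD from 0.19 for DGAT1 to 1.30 for SCD.

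**Figure D1:**
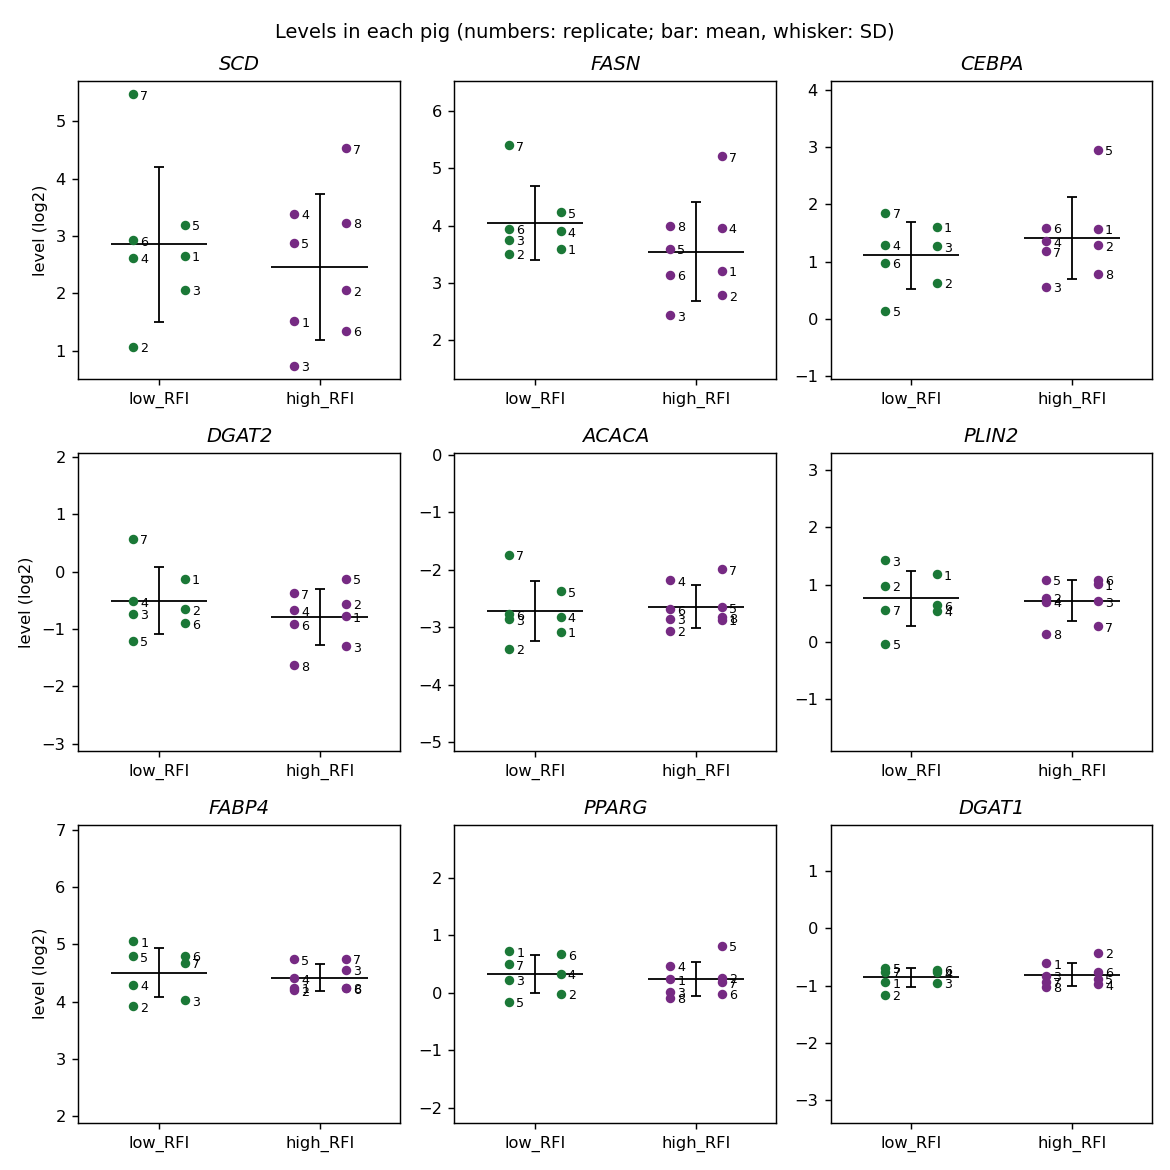
Level (log2 signal relative to the array's 75th percentile) of the 9 genes in each pig, low_RFI left of high_RFI, with every vertical axis spanning the same number of log2 units. Points carry the replicate number, bars are means and whiskers SD. SCD runs over a 26.6-fold range and DGAT1 over a 1.66-fold range, and the lines overlap in every panel.

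SCD, the desaturase that makes oleic acid, spread most. Its level was 1.06 at the lowest, 2.65 at the median and 5.47 at the highest in low_RFI pigs, against 0.73, 2.46 and 4.53 in high_RFI pigs. Low_RFI replicate 7 was the highest of the 15 and high_RFI replicate 7 the next, while high_RFI replicate 3 and low_RFI replicate 2 were the lowest, so each line held a very high and a very low pig. From the lowest to the highest pig the signal ranged 21.2-fold in low_RFI and 13.9-fold in high_RFI. Its within-line SD of 1.30 ranked 41 among 4666 genes, of which 99.1% had a lower SD. Among the 500 genes nearest to it in mean level, 99.6% had a lower one. The lines differed by 0.40 ± 0.62 (SE) on the log2 scale (limma adjusted p = 0.981), and the mean was 2.85 ± 1.35 in the 7 low_RFI pigs and 2.46 ± 1.26 in the 8 high_RFI pigs (SD). Without low_RFI replicate 7 the difference was -0.04, so the sign over all pigs turned with 1 pig left out. Within array numbers 1 to 8, which do not hold that pig, it was 0.18.

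All 9 SCD probes were highest in low_RFI replicate 7 and 8 of 9 lowest in high_RFI replicate 3. Their ranges between pigs ran from 11.3-fold for the dimmest probe, printed above, to 29.5-fold. Of the 9, 4 share a stretch of at least 15 bases with another and are not separate measurements of the transcript. Each probe's r with the brightest was at least 0.959 over the 15 pigs, given as a description.

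FASN, the synthase that builds palmitate, followed the same pigs. Its level was 3.51 at the lowest, 3.903 at the median and 5.40 at the highest in low_RFI pigs, against 2.44, 3.41 and 5.21 in high_RFI pigs. Low_RFI replicate 7 and high_RFI replicate 7 were again the highest and high_RFI replicate 3 the lowest, and the range over all pigs was 7.81-fold. FASN had the largest line difference of the 9 genes, 0.50 ± 0.37 (SE), and the mean was 4.05 ± 0.64 in the 7 low_RFI pigs and 3.54 ± 0.86 in the 8 high_RFI pigs (SD) (limma adjusted p = 0.864). Without low_RFI replicate 7 it was 0.28. In 38 of the 56 pairs of 1 pig from each line the low_RFI pig was higher.

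The third FASN probe did not repeat this pattern. The probe of intermediate brightness ranged 7.77-fold with the same highest and lowest pig as the brightest (r = 0.980 with it). The dimmest probe ranged 1.91-fold, was highest in low_RFI replicate 2 and had an r of -0.17 with the brightest, although it was well above background on all 15 arrays. The pattern given for FASN was thus seen in 2 of its 3 probes.

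**Figure D2:**
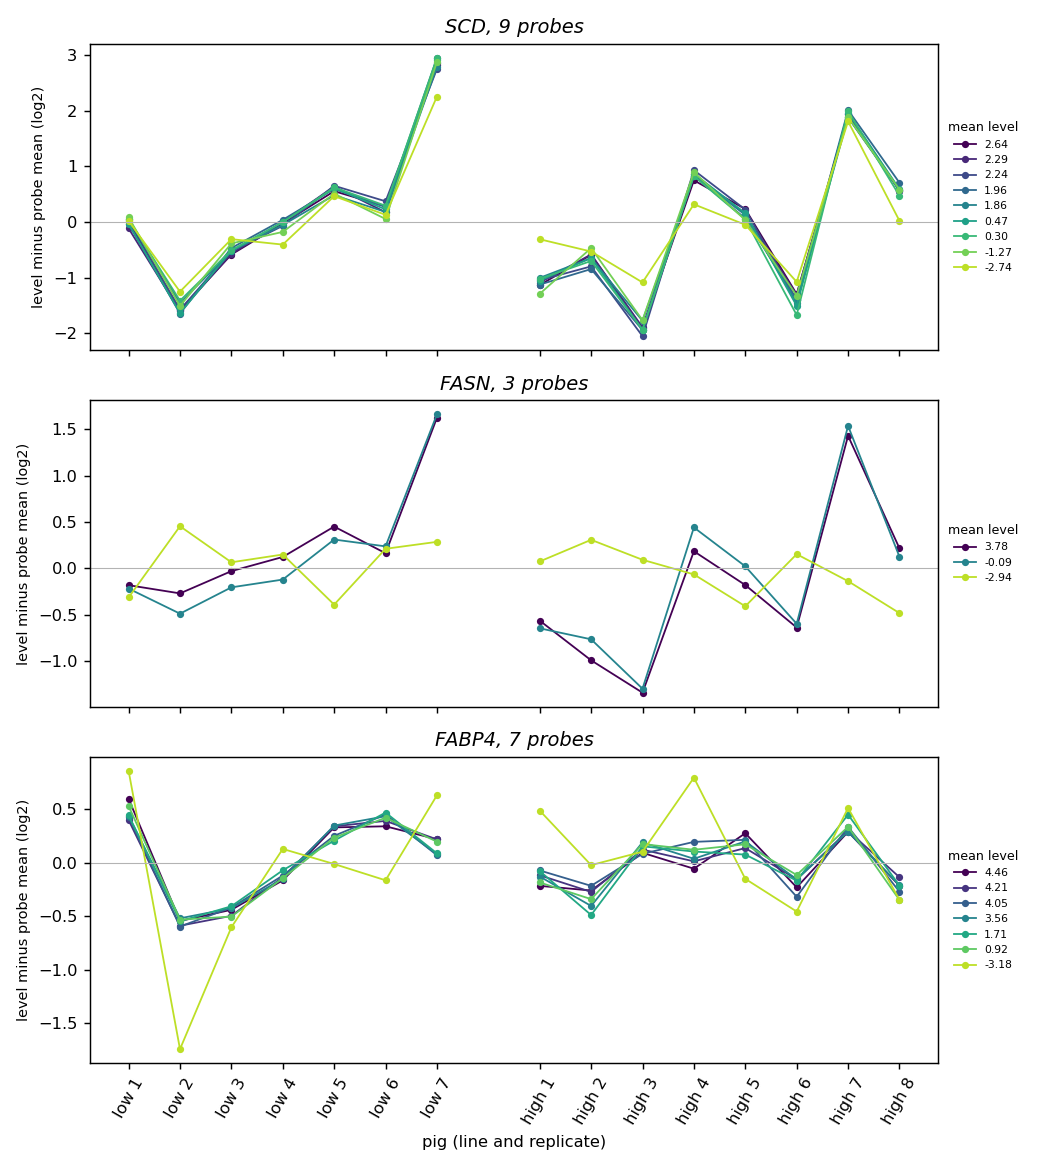
Level of each probe minus its own mean over the pigs (log2), for the 9 probes of SCD, the 3 of FASN and the 7 of FABP4. Low_RFI pigs are left of high_RFI pigs, lines join probes of equal colour and the key gives each probe's mean level. The SCD probes lie on each other, the FASN probe of mean level -2.94 departs from the others, and so does the FABP4 probe of mean level -3.18.

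ACACA, the enzyme that commits acetyl-CoA to fatty acid synthesis, ranked the same 2 pigs highest. Its level was -3.38 at the lowest, -2.82 at the median and -1.74 at the highest in low_RFI pigs, against -3.07, -2.76 and -1.99 in high_RFI pigs. The 2 highest were low_RFI replicate 7 and high_RFI replicate 7, as for SCD and FASN, and low_RFI replicate 2 was the lowest. The range was 3.11-fold and the line difference -0.08 ± 0.22 (SE, limma adjusted p = 0.995). A dimmer probe of ACACA, well above background on 11 arrays, was highest in high_RFI replicate 2 and had an r of 0.313 with the brighter one.

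Taken over both sets of array numbers, the 3 synthesis genes moved together. The permutations shuffled all 15 pigs freely, so a shift between the sets that genes share enters r and its p. The part of that shift was not tested. Over the 15 pigs SCD and FASN had a Pearson r of 0.918 and a Spearman rho of 0.925, with permutation p adjusted over the 36 pairs of the 9 genes of 0.00072 and 0.00036. Without the 2 pigs farthest from the median of SCD, r was 0.836. It was 0.717 among pigs numbered 1 to 8 and 0.969 among pigs numbered 55 to 62. Within the lines it was 0.947 in low_RFI and 0.939 in high_RFI.

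SCD and ACACA had r = 0.824 and rho = 0.736 (permutation p adjusted over 36 pairs 0.00234 and 0.0418), with 0.777 without the 2 pigs farthest in SCD, 0.610 among pigs 1 to 8 and 0.843 among pigs 55 to 62. FASN and ACACA had r = 0.766 and rho = 0.707 (0.012 and 0.0418). This relation was weaker without low_RFI replicate 7 and high_RFI replicate 7, at r = 0.413. Within the lines, each holding 1 of these pigs, r was 0.965 in low_RFI and 0.828 in high_RFI. It was 0.320 among pigs 1 to 8 and 0.893 among pigs 55 to 62. With normexp background correction, r with ACACA was 0.363 for SCD and 0.254 for FASN, and neither passed (adjusted permutation p = 0.41 and 0.529). Without both pigs of highest SCD, a choice made after seeing the data, SCD and ACACA had r = 0.576 (adjusted p = 0.195) and SCD and FASN 0.805 (0.0274).

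SCD, FASN and some of the other genes described here also had different means in the sets of array numbers. SCD averaged 3.37 ± 1.31 (SD, n = 7) in pigs numbered 55 to 62 and 2.01 ± 0.88 (SD, n = 8) in pigs numbered 1 to 8, and FASN averaged 4.22 ± 0.82 in pigs 55 to 62 and 3.40 ± 0.54 in pigs 1 to 8. ACACA was also higher in pigs 55 to 62, at -2.44 ± 0.42 against -2.89 ± 0.34. So was FABP4, at 4.60 ± 0.25 against 4.34 ± 0.35. PLIN2 was lower in pigs 55 to 62, at 0.54 ± 0.44 against 0.91 ± 0.29. The differences (55 to 62 minus 1 to 8) were 0.16 for CEBPA, -0.01 for PPARG, 0.008 for DGAT1 and 0.013 for DGAT2. What the numbers stand for is not given in the sources used here, and the part of this split in the spread was not tested. The line difference of SCD was 0.87 within numbers 55 to 62 and 0.18 within numbers 1 to 8, and that of FASN 0.54 and 0.59.

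**Figure D3:**
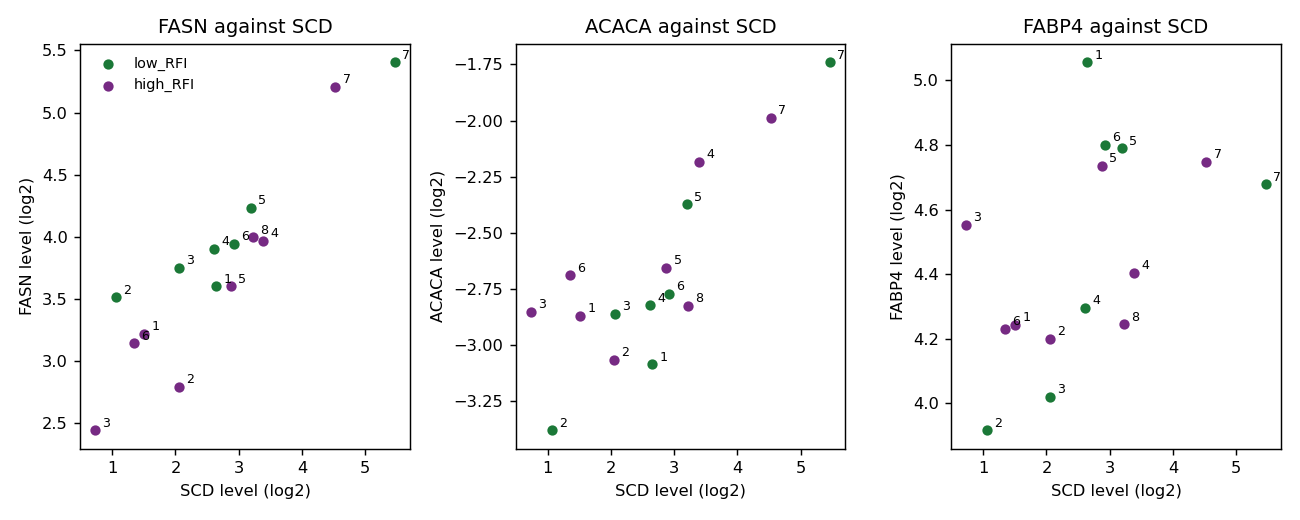
Level of FASN, ACACA and FABP4 against that of SCD (log2, 15 pigs, replicate numbers beside the points). FASN rises with SCD across both lines (r = 0.918). ACACA has r = 0.824 with SCD over all pigs and 0.576 without replicate 7 of each line, both in array numbers 55 to 62. FABP4 does not pass with SCD (r = 0.506, adjusted permutation p = 0.182).

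PPARG and CEBPA formed another pair. PPARG, the nuclear receptor without which adipocytes do not form, had a level of -0.16 at the lowest, 0.33 at the median and 0.73 at the highest in low_RFI pigs, against -0.09, 0.21 and 0.82 in high_RFI pigs, a range of 1.97-fold over all. High_RFI replicate 5 was the highest and low_RFI replicate 5 the lowest, and the lines differed by 0.09 ± 0.16 (SE, limma adjusted p = 0.981; 0.02 without low_RFI replicate 1 and 0.17 without high_RFI replicate 5). All 3 PPARG probes share sequence with another, and all 3 were lowest in low_RFI replicate 5.

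CEBPA, the factor that acts with PPARG to keep the adipocyte state, ranged 6.98-fold. Its level was 0.15 at the lowest, 1.27 at the median and 1.86 at the highest in low_RFI pigs, against 0.57, 1.32 and 2.95 in high_RFI pigs. High_RFI replicate 5 stood well above the rest of its line, whose next pig was at 1.595. Both CEBPA probes had that pig highest and low_RFI replicate 5 lowest, with ranges of 6.98-fold and 2.45-fold. In high_RFI replicate 5 the mean over 6 leukocyte markers was also the highest of all pigs, at 1.35 against -0.81 to 0.04 in the other high_RFI pigs and -0.87 to 0.84 in low_RFI pigs. The mean over the 11 other adipocyte markers tested was likewise highest in high_RFI replicate 5, at 0.93. It was -0.04 to 0.68 in the other high_RFI pigs and -0.07 to 0.74 in low_RFI pigs. The part of leukocytes or of adipocytes in the CEBPA value was not tested. The line difference was -0.30 ± 0.31 (SE), and the mean was 1.12 ± 0.58 in the 7 low_RFI pigs and 1.41 ± 0.72 in the 8 high_RFI pigs (SD) (limma adjusted p = 0.941). It was -0.08 without high_RFI replicate 5 and -0.14 without low_RFI replicate 5.

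PPARG and CEBPA had r = 0.724 and rho = 0.686 over the pigs (permutation p adjusted over 36 pairs 0.012 and 0.0438), with 0.571 without the 2 pigs farthest in PPARG. It was 0.808 among pigs 1 to 8 and 0.718 among pigs 55 to 62. Without high_RFI replicate 5 it was 0.613 and did not pass (adjusted p = 0.12). Over all pigs neither factor passed with SCD, the r of SCD being 0.33 with PPARG and 0.22 with CEBPA (rho 0.25 and 0.161, adjusted permutation p of r 0.444 and 0.641). Within the sets of array numbers these differed: SCD had r = 0.822 with PPARG and 0.703 with CEBPA among pigs 1 to 8, and 0.204 with PPARG and 0.0059 with CEBPA among pigs 55 to 62.

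DGAT2, the acyltransferase of the endoplasmic reticulum and droplet surface, spread over a log2 range of 2.20. Its level was -1.21 at the lowest, -0.66 at the median and 0.57 at the highest in low_RFI pigs, against -1.63, -0.73 and -0.13 in high_RFI pigs. Low_RFI replicate 7 was the highest of all, as for SCD and FASN, and both DGAT2 probes had the same highest and lowest pig. The lines differed by 0.29 ± 0.26 (SE, limma adjusted p = 0.908), by 0.11 without low_RFI replicate 7 and by 0.17 without high_RFI replicate 8. DGAT2 had r = 0.663 and rho = 0.700 with PPARG (permutation p adjusted over 36 pairs 0.0408 and 0.0418), with 0.576 without the 2 pigs farthest in PPARG, 0.760 among pigs 1 to 8 and 0.641 among pigs 55 to 62. That pair missed the threshold in 16 of 22 alternatives, at an r of 0.609 to 0.762. With CEBPA, DGAT2 had r = 0.666 (adjusted permutation p = 0.0585) and rho = 0.657 (0.0484). After subtracting line means that pair passed, at r = 0.784 (adjusted permutation p = 0.00367).

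DGAT1 was the steadiest of the 9 genes. Its level was -1.16 at the lowest, -0.77 at the median and -0.69 at the highest in low_RFI pigs, against -1.02, -0.85 and -0.43 in high_RFI pigs. The range was 1.66-fold and the within-line SD 0.19, which 25.9% of all genes undercut, and the median SD of all genes was 0.26. The lines differed by -0.05 ± 0.10 (SE, limma adjusted p = 0.990). DGAT1 passed with none of the other genes, with r over all pigs from -0.23 (FASN) to 0.11 (FABP4). Within low_RFI and high_RFI its r took opposite signs with SCD (0.68 and -0.55), FASN (0.56 and -0.60) and ACACA (0.71 and -0.62). So did its r with FABP4 (0.60 and -0.48) and PLIN2 (-0.72 and 0.50). With PPARG, CEBPA and DGAT2 it lay between -0.05 and 0.23 in both lines. These r within lines were not tested.

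PLIN2, the droplet coat found in most cells, ran against the synthesis genes in sign. Its level was -0.03 at the lowest, 0.64 at the median and 1.42 at the highest in low_RFI pigs, against 0.14, 0.74 and 1.09 in high_RFI pigs. Low_RFI replicate 3 was the highest and low_RFI replicate 5 the lowest, and the line difference was 0.04 ± 0.20 (SE, limma adjusted p = 0.998). Its r was -0.50 with SCD (adjusted permutation p = 0.182) and -0.46 with both FASN and ACACA (adjusted permutation p = 0.211 each). The rho with FASN was -0.66 (adjusted permutation p = 0.0484), but within the sets of array numbers the r was 0.186 in pigs 1 to 8 and -0.51 in pigs 55 to 62, so the sign did not hold within both.

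**Figure D4:**
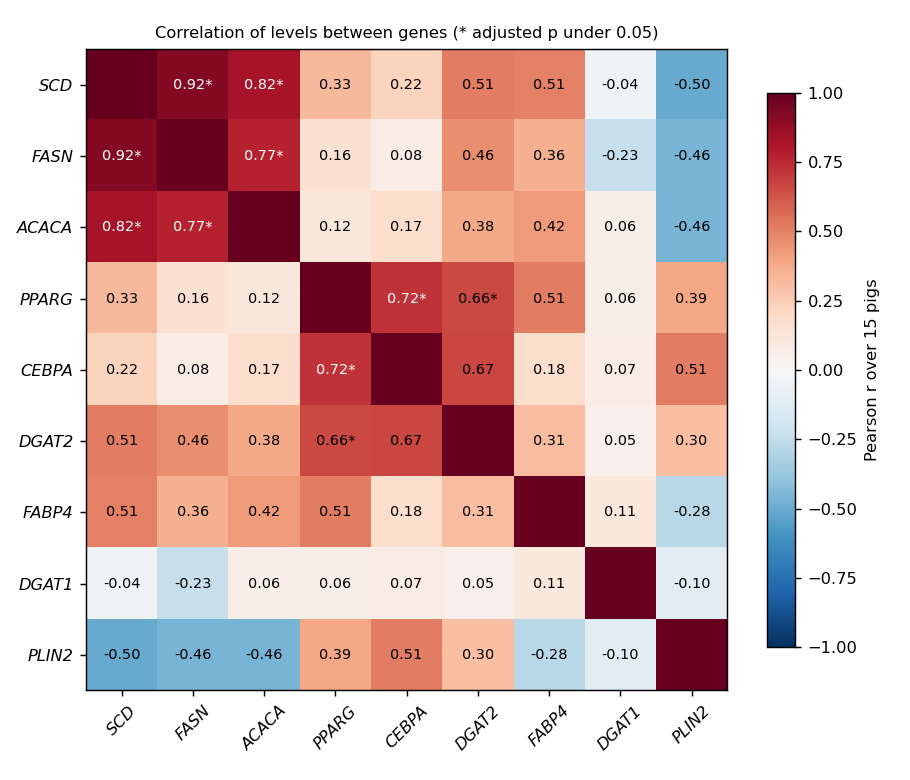
Pearson r over the 15 pigs between the levels of the 9 genes, with red above 0, blue below 0 and a star where the permutation p adjusted over the 36 pairs was under 0.05. SCD, FASN and ACACA form a block, PPARG, CEBPA and DGAT2 a looser one, and FABP4, DGAT1 and PLIN2 have no star.

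FABP4, the fatty acid binding protein most used as an adipocyte marker, varied somewhat more than the median gene. Its level was 3.92 at the lowest, 4.68 at the median and 5.06 at the highest in low_RFI pigs, against 4.20, 4.32 and 4.75 in high_RFI pigs. Low_RFI replicate 1 was the highest and low_RFI replicate 2 the lowest, and the range was 2.20-fold over all pigs, where the median gene ranged 1.89-fold. The within-line SD of 0.34 lay above that of 67.6% of all genes, and above that of 85.2% of the 500 genes nearest in level. The lines differed by 0.09 ± 0.17 (SE), and the mean was 4.51 ± 0.43 in the 7 low_RFI pigs and 4.42 ± 0.23 in the 8 high_RFI pigs (SD) (limma adjusted p = 0.985). Without low_RFI replicate 1 the difference was -0.00314.

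All 7 FABP4 probes were lowest in low_RFI replicate 2, including the dimmest, whose range was 6.05-fold against 1.94-fold to 2.20-fold for the others. Low_RFI replicate 2 was also the lowest pig for ACACA and DGAT1 and had the fewest probes well above background of all arrays, 61.7%. The part of that array in these low values was not tested. FABP4 passed with none of the other 8 genes. Its largest r were 0.51 with PPARG and 0.51 with SCD (adjusted permutation p = 0.182 each).

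Of the 11 other adipocyte markers tested, 8 had a larger range over the pigs than FABP4 and 3 a smaller one. The share of all genes with a larger range than FABP4 was not computed. Among the 8 were dim probes, RETN (3.45-fold, well above background on 11 arrays) and AQP7 (6.73-fold, 14 arrays). ADIPOQ, the adipocyte hormone adiponectin, ranged 9.73-fold, with levels of -0.39 to 2.53 in low_RFI pigs and -0.05 to 2.89 in high_RFI pigs. CIDEC, which fuses lipid droplets in fat cells, ranged 10.6-fold, with -0.73 to 2.24 in low_RFI pigs and -1.17 to 2.03 in high_RFI pigs. CIDEC had the same extremes as SCD, low_RFI replicate 7 highest and high_RFI replicate 3 lowest, whereas ADIPOQ was highest in high_RFI replicate 5 and lowest in low_RFI replicate 5, like CEBPA. The markers of smaller range were LEP, the hormone leptin (1.76-fold), FABP5 (1.88-fold) and RBP4 (2.05-fold). FABP4 followed none of these markers closely from pig to pig. Its r with them ran from -0.37 (RBP4) to 0.34 (RETN), with 0.33 for ADIPOQ and 0.29 for CIDEC, given as measures of likeness.

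Of 14 other adipocyte markers 11 were tested and 0 were called, with 3 higher and 8 lower in low_RFI and a median difference of -0.03. AQP7, the glycerol channel of adipocytes, had levels of -5.09 to -3.25 in low_RFI pigs and -3.75 to -2.34 in high_RFI pigs, a difference of -1.14 ± 0.31 (SE, limma adjusted p = 0.333). With normexp background correction that difference was -0.42. ACP5 had -0.83 to 0.89 in low_RFI pigs and -0.16 to 1.83 in high_RFI pigs, a difference of -0.71 ± 0.28 (SE, limma adjusted p = 0.604). It was highest in high_RFI replicate 5, as were the mean over the leukocyte markers and the mean over this list, ACP5 included. The cell type behind the ACP5 value was not tested. Neither AQP7 nor ACP5 passed, and PLIN1 and CFD, defining markers of the type, were not tested here.

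The genes that supply and regulate fatty acid synthesis held no called gene either. Of 18 listed, 12 were tested, with 5 higher and 7 lower in low_RFI, a median difference of -0.04 and 0 called. ME1, malic enzyme, which makes NADPH for the synthase, had the smallest p at a difference of -0.55 ± 0.23 (SE, limma adjusted p = 0.655). From pig to pig this list tracked SCD, a relation added after the data were seen. The mean level of the 12 genes had r = 0.804 and rho = 0.689 with SCD (permutation p adjusted over 10 lists 0.0037 and 0.0288), with 0.699 without the 2 pigs farthest in SCD. It was 0.973 among pigs 55 to 62 but 0.188 among pigs 1 to 8, so it did not hold within numbers 1 to 8. Low_RFI replicate 1, in that set, had the lowest list mean (-0.41). The same pig was lowest in FADS2 (-7.05), whose probe was well above background on 8 arrays. Without low_RFI replicates 7 and 1, the farthest in the list mean, r was 0.835. The part of that probe in r was not tested.

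Over all 4602 genes measured in every pig, those closest to SCD once line means were subtracted were FASN (r = 0.928), ACLY (0.896), MLXIPL (0.870), ACACA (0.853), ERMP1 (0.853) and URB2 (0.843). ACLY makes the acetyl-CoA used by ACACA, and MLXIPL is the glucose-responsive factor ChREBP. ACLY ranged 5.05-fold, with levels of 1.66 to 3.99 in low_RFI pigs and 1.82 to 2.81 in high_RFI pigs. SREBF1, the insulin-responsive regulator of the same pathway, had levels of 2.29 to 3.40 in low_RFI and 2.36 to 3.55 in high_RFI, and its r with SCD over the pigs was -0.08. For FABP4, close genes were VSIR (0.833), HPS6 (0.832), UPK3A (0.814), LCLAT1 (0.760) and WDR48 (0.748), and SCD came 215th. These r over 15 pigs are measures of likeness and carry no test.

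Further lists around the 9 genes held no called gene. Triglyceride assembly had 12 of 15 tested, 4 higher and 8 lower in low_RFI with a median of -0.08, and GPAT3, which starts glycerolipid synthesis, had the smallest p at -0.41 ± 0.18 (SE, limma adjusted p = 0.673). Droplet coats and lipolysis had 11 of 14 tested, 4 higher and 7 lower with a median of -0.04. In that list MGLL, which cleaves the last fatty acid from glycerol, had 0.38 ± 0.12 (SE, limma adjusted p = 0.438) and PNPLA2, which cleaves the first, -0.40 ± 0.19 (adjusted p = 0.698). Adipogenic regulators had 17 of 20 tested, 10 higher and 7 lower with a median of 0.05, and NR1H3, the liver X receptor alpha, had -0.31 ± 0.11 (SE, limma adjusted p = 0.516).

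**Figure D5:**
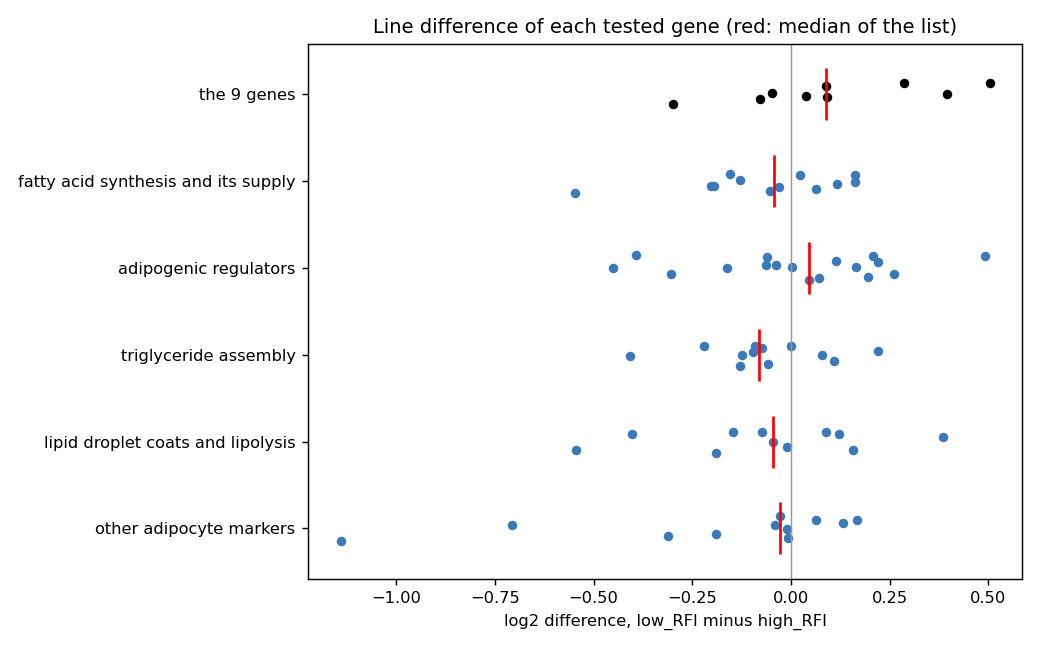
Log2 difference in level (low_RFI minus high_RFI) of each tested gene in the 9 genes described and in 5 lists around them, with the median of each in red and vertical scatter only to separate points. The medians lie between -0.08 and 0.09, and AQP7 at -1.14 is the point farthest from 0.

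FABP4 passed with the mean level of none of the lists. Its r with the mean of each of 10 lists ran from -0.36 (myofibre) to 0.47 (leukocyte), and the smallest permutation p adjusted over the 10 was 0.45 for r and 0.42 for rho. With the endothelium mean FABP4 had r = 0.17 and rho = 0.37 over all pigs. Within the lines that r was 0.59 in low_RFI and -0.12 in high_RFI. The cell types behind the FABP4 value were not tested. The myofibre mean hides differences between its genes. Their r with FABP4 was lowest for TNNT3 (-0.68), ATP2A1 (-0.66) and MYH1 (-0.65). It was above 0 for TNNT1 (0.15), MB (0.11) and MYH7 (0.02). These single r are measures of likeness and carry no test. SCD had rho = 0.764 with the mean of 7 endothelium markers (permutation p adjusted over 10 lists 0.0141), but r = 0.586 (0.117). Of 5 erythrocyte markers none had a named probe.

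The 9 genes lie on 7 chromosomes of the Sscrofa11.1 assembly in the RefSeq gene table. SCD spans 111461560 to 111478033 on chromosome 14, FASN 922405 to 937560 and ACACA 38580916 to 38875067 on chromosome 12. FABP4 spans 55096400 to 55101209 and DGAT1 452890 to 463665 on chromosome 4. PPARG spans 68301566 to 68433951 on chromosome 13, CEBPA 43083200 to 43085884 on chromosome 6, DGAT2 10032163 to 10066082 on chromosome 9 and PLIN2 203683867 to 203709277 on chromosome 1.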

How the data were processed

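Muscle RNA of 15 pigs was hybridised to 15 Agilent arrays with 1 colour. Per the file headers, the scanner values are intensity from Feature Extraction 10.7.3.1 (protocol GE1_107_Sep09), background-subtracted by that software and not normalized between arrays, beside other columns that flag spots. The authors' deposited log2 values cover 29364 spots, each the log2 processed signal minus a value per array (largest difference 4.93e-08). They served as an alternative. The submitters' processing notes name R 2.10.0.

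Control spots and those marked non-uniform were removed, and replicate spots of a probe averaged. Probes well above background on at least 7 arrays, with at least 4 values per line, were tested (31989 of 43603). Of all probes, 12123 had 1 gene symbol, 339 a LOC name only, and 31141 several genes or none, from the files and the RefSeq genes of Sscrofa11.1. Lines were compared, two-sided, with limma 3.58.1 (lmFit, eBayes; R 4.3.3, statmod 1.5.0, data.table at 1.17.8) and Benjamini-Hochberg adjustment over 4666 genes. Correlations used 100000 permutations, two-sided, with numpy 2.4.6, scipy 1.17.1 and pandas 2.3.3 in Python 3.11.15. All pigs were shuffled together, without blocks for line or set of array numbers. Plots were drawn with matplotlib 3.10.9. Fit and correlations were tested on simulated data.

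The 9 genes and all lists were chosen with earlier results of these data known. Text names the 9 genes, up to 3 genes of smallest p or largest r with FABP4 per list, the 6 genes most like FABP4 (of which 1 is not reported here) and the 6 most like SCD, and any called gene. CIDEC and LEP were named after their values were seen. Precision is limited by the number of pigs, with a median SE of 0.13 for the difference of a gene. The labels do not say whether the pigs share litters.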

Additional observations from a re-analysis of the deposited data

Results flagged for a closer look

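In 4 of 48 groups examined (the 9 genes and the 15 genes of smallest p in the 5 lists on fat, each in both lines) 1 pig stood far from the rest by Dixon's criterion at the 95% level, where chance marks about 1 group in 20. FASN in low_RFI replicate 7 was at 5.40, with the next low_RFI pig at 4.23. CEBPA in high_RFI replicate 5 was at 2.95, with the next high_RFI pig at 1.595. ME1 in low_RFI replicate 7 was at 0.0906, with the next low_RFI pig at -1.07. SCAP, which escorts the sterol regulatory factors, was at 2.03 in high_RFI replicate 2, below the next high_RFI pig at 2.25.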

How the results depend on the processing

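None of the 9 genes was called under any of the 270 combinations of gene and alternative (smallest adjusted p = 0.431), and 12 of them turned the sign of a difference. The signs turned for FABP4 without low_RFI replicate 1 (-0.00314), SCD without low_RFI replicate 7 (-0.0402), ACACA with the mean of its probes (0.0225), without low_RFI replicate 2 (0.0322) or high_RFI replicate 7 (0.0153), and DGAT1 without low_RFI replicate 2 (0.000814) or high_RFI replicate 2 (0.00433). PLIN2 turned with the replicate block on the numbers both lines have (-0.0454), and without low_RFI replicate 1 (-0.0328) or 3 (-0.0731) or high_RFI replicate 7 (-0.0261) or 8 (-0.0454). Leaving out 1 pig at a time, differences ran from -0.0402 to 0.694 for SCD, 0.278 to 0.742 for FASN, -0.241 to 0.0322 for ACACA, 0.0242 to 0.175 for PPARG, -0.422 to -0.0784 for CEBPA, 0.107 to 0.404 for DGAT2, -0.00314 to 0.187 for FABP4, -0.0806 to 0.00433 for DGAT1 and -0.0731 to 0.169 for PLIN2; the cause was not tested. Deviations of same-numbered pigs of the 2 lines correlated at -0.04 to 0.31, above 0.1 in 5 of 7 pairs, and 2 of 7 low_RFI and 3 of 7 high_RFI pigs correlated best with their own number. Same-numbered pigs also lie in the same set of array numbers, so a shift between the sets enters these r. The check therefore cannot tell pairs from sets. The numbers were not taken as pairs, which does not show that same-numbered pigs share nothing. The replicate block also takes out differences between the sets. It leaves out high_RFI replicate 8, called 0 genes and none of the 9, and gave SCD 0.505 ± 0.326 (SE) and FASN 0.569 ± 0.155 (SE, adjusted p = 0.431).

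The count of genes called between lines, 1, was 0 with normexp, the median, the deposited values, no dim filter, slide as a fixed block or an adjusted p under 0.01. It was 2 with quantile normalization, the set of array numbers as a block, array weights, the mean of probes or an adjusted p under 0.10, and 0 to 3 without 1 pig. Correlated pairs, 5 of 36, were 2 with normexp, 3 without both pigs of highest SCD and 3 to 6 without 1 pig. SCD and FASN passed in all 22 alternatives (r 0.805 to 0.947). CEBPA and DGAT2 passed as well with line means subtracted, which gave 6 pairs. The relations of ACACA did not pass with normexp, and the cause was not tested.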

Other observations

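The list means per pig ran from -0.41 to 0.47 in low_RFI and -0.27 to 0.30 in high_RFI for fatty acid synthesis and supply, and from -0.07 to 0.74 in low_RFI and -0.04 to 0.93 in high_RFI for other adipocyte markers. For triglyceride assembly they ran from 0.89 to 1.13 in low_RFI and from 0.875 to 1.203 in high_RFI. Such means cancel where members go opposite ways, and within that list GK ranged 3.26-fold and LPIN1 2.64-fold over the pigs. GATA3, which holds back adipocyte differentiation in mouse preadipocytes, and CEBPD, which acts early in it, had the largest r with FABP4 among the adipogenic regulators, at 0.670 and 0.661, given as measures of likeness over 15 pigs. CEBPD ranged 4.97-fold, from 0.65 to 1.64 in low_RFI pigs and from -0.03 to 2.29 in high_RFI pigs.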
